A study of Mus musculus with 20 samples.

Results

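Hepcidin and 9 other genes of iron handling were followed in the livers of 4 inbred mouse strains: Hamp, Hamp2, Tfrc, Tfr2, Slc40a1, Bmp6, Id1, Smad7, Lcn2 and Fth1. These 10 genes were taken by their exact symbol from 19938 genes named on the arrays, of which 14190 were bright enough to test. Each of the 10 had 1 probe set and was tested, and none was dim on any array (a value counts as dim when it falls short of the 40th percentile for that array). Whole-transcript arrays were run on total liver RNA, 1 array per animal, from 20 male mice: 5 of strain NZO/Hl (called NZO), 5 of C57/Bl6 (called B6), 5 of C3H and 5 of 129P2/OlaHsd (called 129P2). The labels give the C3H animals by a Jackson Lab stock number rather than by a substrain name. Every animal was 6 weeks old and, from weaning at 21 days, had been fed a diet that drew 45% of its calories from fat, so no strain was seen on another diet. NZO is a strain used as a model of obesity and diabetes. The labels give neither body weight nor iron status, litter or array batch, and the series concerns Nudt19, for which these arrays were part of the search for candidate genes. No animal here was treated or genetically altered.

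Hepcidin, the product of Hamp, is a peptide hormone made by hepatocytes that binds ferroportin, the iron exporter encoded by Slc40a1, and causes its degradation, so that less iron enters the blood from the gut and from macrophages. Hepatocytes adjust Hamp to iron through bone morphogenetic protein (BMP) signalling, in which BMP6 and BMP2 from liver endothelial cells activate SMAD proteins. In inflammation they raise Hamp through interleukin 6 and STAT3. Mice carry a second gene, Hamp2, beside Hamp.

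All values are deposited log2 expression values, so a difference of 1 is a doubling of signal. Group values are means with the standard deviation (SD, n = 5), and differences carry the standard error (SE) of a limma fit over all 4 strains, with p-values adjusted over the 14190 tested genes and a threshold of 0.05. The 5 values of a strain are given in the order of its replicates 1 to 5, which only names the animals. The number of arrays limits the precision. Arrays differed in the spread of their values, with an interquartile range from 2.17 to 2.50, and the widest array was that of NZO replicate 1. Hepatocyte markers were high on every array, with a mean over the 14 genes of that list between 13.19 and 13.39.

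The upstream sequences of Hamp and Hamp2 are shown because both genes were on the array, lie close together, and were set against each other within each animal. Each is the 250 bases before the start of the RefSeq gene in the GRCm38.p6 mouse assembly, read on the minus strand of chromosome 7, from chr7:30944030-30944279 for Hamp and chr7:30924182-30924431 for Hamp2. That assembly is of 1 reference strain, and the sequence of the other strains was not examined. Capitals mark matches, in order from the 5′ end, to GGCGCC (a BMP response element core bound by SMAD proteins), to TTCNNNGAA (a STAT motif) and to TGAGTCA (an AP-1 motif), each searched on both strands.
Hamp: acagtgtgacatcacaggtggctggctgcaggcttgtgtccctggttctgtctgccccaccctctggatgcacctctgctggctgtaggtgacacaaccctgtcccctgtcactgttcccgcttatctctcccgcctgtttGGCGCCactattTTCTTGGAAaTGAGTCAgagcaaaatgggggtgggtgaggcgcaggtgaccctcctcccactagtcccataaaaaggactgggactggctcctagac
Hamp2: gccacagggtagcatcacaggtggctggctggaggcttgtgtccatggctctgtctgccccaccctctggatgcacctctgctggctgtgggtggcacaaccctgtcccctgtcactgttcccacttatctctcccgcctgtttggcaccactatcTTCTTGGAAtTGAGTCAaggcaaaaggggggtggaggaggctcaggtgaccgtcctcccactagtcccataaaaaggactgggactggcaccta
The 2 windows aligned over 247 bases with 227 identical and 20 substitutions, an identity of 91.9%. In Hamp the first base of GGCGCC lay 109 bases upstream of the gene's start, that of TTCNNNGAA 97 and that of TGAGTCA 87. In Hamp2 the STAT and AP-1 motifs lay 94 and 84 bases upstream, and GGCGCC had no match. Of the 20 substitutions 1 fell in a matched motif of Hamp, G145A, with positions counted from 1 at the 5′ end of the Hamp window, 106 bases upstream, where the first base is that of Hamp and the second that of Hamp2. Over 32851 promoter windows of the same length, 9.59% held GGCGCC, 7.02% TTCNNNGAA and 4.46% TGAGTCA. Among the members with a RefSeq window, Tfrc also held GGCGCC, 89 bases upstream in 1 of its windows. A match shows only that these letters are present.

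Hamp was lower in NZO than in each of the other strains, to 23.7% of the B6 signal, and it was the 1 member of the 10 called lower in all 3 NZO comparisons. Of all genes tested, 1.22% were called lower in all 3. The 5 NZO values were 13.08, 9.42, 11.19, 10.47 and 11.71. The B6 values were 13.29, 13.45, 13.29, 13.22 and 12.99, and the C3H values 13.14, 12.66, 12.60, 13.02 and 13.03. In 129P2 they were 13.44, 12.87, 13.05, 12.63 and 13.06. NZO replicates 2 to 5 lay below every animal of the other strains, while NZO replicate 1 lay among them, so the strains overlapped in every comparison.

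The NZO mean for Hamp was 11.17 ± 1.37 against 13.01 ± 0.296 in 129P2, 12.89 ± 0.244 in C3H and 13.25 ± 0.165 in B6 (SD, n = 5). The 5 NZO animals were thus spread far more widely than those of any other strain. NZO differed from B6 by -2.07 ± 0.39 (SE; 95% interval -2.87 to -1.28; limma adjusted p = 0.000846), which put its signal at 23.7% of that in B6. Against C3H the difference was -1.72 ± 0.39 (-2.52 to -0.92; limma adjusted p = 0.00567), or 30.4%. Against 129P2 it was -1.84 ± 0.39 (-2.64 to -1.04; limma adjusted p = 0.00266), or 28.0%. Limma assumes 1 spread for all strains. Exact two-sided permutation of the 10 animals of each comparison gave unadjusted p = 0.0159, 0.0397 and 0.0397 in that order, where 5 animals a strain allow no p below 0.00794. Permutation takes the animals of both strains as exchangeable, so it too is affected by unequal spread.

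The order of Hamp levels was B6, 129P2, C3H and NZO from highest to lowest, and the 3 upper strains did not differ from each other by limma (differences from -0.36 to -0.12, adjusted p from 0.576 to 0.927). The exact permutation test of C3H against B6 alone gave unadjusted p = 0.0317. All 3 NZO calls held in all 31 alternative settings tried, among them each animal left out in turn, with differences from -2.55 to -1.63 against B6, -2.19 to -1.28 against C3H and -2.31 to -1.40 against 129P2. In whole liver RNA, fewer cells of a type and less RNA per cell cannot be told apart. Of the 14 hepatocyte markers, 2 were called in NZO minus B6, 1 in each direction, and 0 in the other 2 NZO comparisons by limma (6 against C3H and 5 against 129P2 at an unadjusted p under 0.05). Over all tested genes the shares called were 10.3%, 6.6% and 8.9% against B6, C3H and 129P2. Among the NZO animals the array of replicate 1, highest in Hamp, had the widest spread, an interquartile range of 2.50. That of replicate 2, lowest in Hamp, had the narrowest, 2.20. Replicates 3 to 5, with Hamp at 11.19, 10.47 and 11.71, had 2.30, 2.38 and 2.29, so their order in spread was the reverse of that in Hamp. With array spread as a covariate, the 3 calls of Hamp were still made.

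Hamp2 encodes a hepcidin-like peptide whose part in iron balance is less clear than that of Hamp. It was low in most NZO animals too, but no Hamp2 comparison passed the threshold. The 5 NZO values were 11.63, 8.52, 9.14, 9.46 and 10.34. Those of B6 were 10.62, 10.63, 10.60, 11.12 and 10.26, those of C3H 10.60, 10.90, 9.90, 10.01 and 11.21, and those of 129P2 10.95, 10.16, 10.32, 10.62 and 10.18. NZO held both the highest and the lowest animal of all 20: replicate 1 lay above every other mouse and replicates 2, 3 and 4 below every mouse of the other strains.

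The Hamp2 mean was 9.82 ± 1.21 in NZO, 10.45 ± 0.336 in 129P2, 10.52 ± 0.563 in C3H and 10.64 ± 0.309 in B6 (SD, n = 5). The NZO differences were -0.83 ± 0.38 from B6, -0.70 ± 0.38 from C3H and -0.63 ± 0.38 from 129P2 (SE; limma adjusted p = 0.178, 0.399 and 0.398). The 95% interval against B6 ran from -1.62 to -0.04, so a lowering as large as the fitted value of Hamp was outside it. Without NZO replicate 1, Hamp2 was called lower in all 3 NZO comparisons, by -1.28, -1.16 and -1.08 (limma adjusted p = 0.00553, 0.0167 and 0.0206). With array weights, which give less weight to arrays that lie far from the fit, it was called in all 3 as well. Hamp and Hamp2 are close copies, and a probe set of one may bind transcripts of the other, so how the signal divides between them is uncertain.

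**Figure D1:**
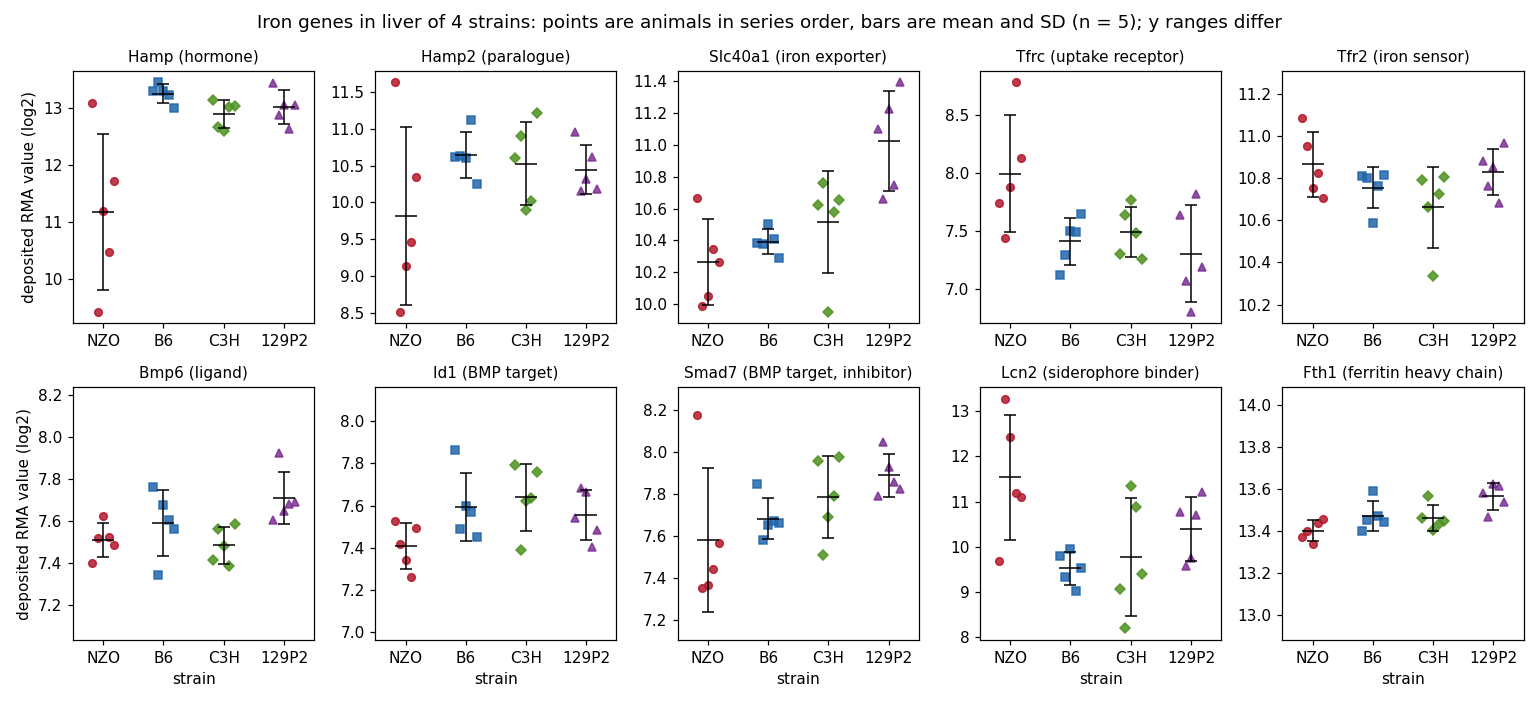
Deposited log2 value (y axis, a range of its own in each panel) of the 10 iron genes by strain (x axis), with 1 point per animal and bars for the mean and SD of 5 animals. In the Hamp panel 4 NZO animals lie between 9.42 and 11.71, under every other mouse, and NZO replicate 1 lies at 13.08.

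How Hamp stood relative to Hamp2 was compared between strains through the difference of their log2 values within each animal. The size of that difference depends on the probes and has no meaning of its own, but it can be compared between strains. In NZO it was 1.45, 0.904, 2.05, 1.0 and 1.37, and in B6 2.67, 2.82, 2.69, 2.10 and 2.74, so that every NZO animal lay below every B6 animal. The means were 1.35 ± 0.452 in NZO, 2.56 ± 0.337 in 129P2, 2.37 ± 0.550 in C3H and 2.60 ± 0.287 in B6 (SD, n = 5). NZO minus B6 was -1.25, NZO minus C3H -1.01 and NZO minus 129P2 -1.21 (exact two-sided permutation p = 0.00794, 0.0238 and 0.0159, each 0.0476 after Benjamini-Hochberg adjustment over 6 comparisons). Hamp minus Hamp2 was thus smaller in NZO, as measured by 2 probe sets whose binding may overlap. NZO replicate 1, whose Hamp signal lay among those of the other strains, was at 1.45 also below every animal of the other strains in this difference. The other 3 comparisons gave adjusted p from 0.583 to 0.810. Without NZO replicate 1, 2, 4 or 5, 1 of the 6 comparisons stayed past the threshold, against B6; without NZO replicate 1 that of C3H gave an adjusted p of 0.0952 and that of 129P2 0.0714 by the same exact test. Leaving out C3H replicate 1, 3 or 4 lost the call against C3H (adjusted p from 0.0635 to 0.0794).

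The ligand and the targets of BMP signalling came next, since this pathway sets Hamp by iron. None of the 3 members passed the limma threshold in any comparison or by the F-test over 4 strains. Bmp6, the iron-induced ligand, ranged from 7.34 to 7.93 over the 20 arrays, with means of 7.51 ± 0.0806 in NZO, 7.71 ± 0.125 in 129P2, 7.48 ± 0.0873 in C3H and 7.59 ± 0.156 in B6 (SD, n = 5). NZO minus B6 was -0.08 and NZO minus C3H 0.03 (limma adjusted p = 0.532 and 0.944). The largest Bmp6 difference was between C3H and 129P2, whose values did not overlap, at -0.23 ± 0.08 (SE; limma adjusted p = 0.0997).

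Id1, a transcriptional regulator induced by SMAD signalling alongside Hamp, gave 7.53, 7.42, 7.34, 7.26 and 7.49 in NZO. Its means were 7.41 ± 0.110 in NZO, 7.56 ± 0.119 in 129P2, 7.64 ± 0.159 in C3H and 7.59 ± 0.163 in B6 (SD, n = 5). NZO had the lowest mean, and its values overlapped those of every other strain. The differences were -0.19, -0.23 and -0.15 from B6, C3H and 129P2, each with an SE of 0.09 (limma adjusted p = 0.183, 0.137 and 0.374). Without C3H replicate 2 the difference from C3H was -0.29 and was called (limma adjusted p = 0.0373). It was also called with array weights (limma adjusted p = 0.0169).

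Smad7, an inhibitor that SMAD signalling induces and that restrains Hamp, gave 8.18, 7.36, 7.37, 7.44 and 7.57 in NZO. NZO replicate 1 was the highest of all 20 animals and replicates 2 to 4 were the lowest of all. The NZO mean was 7.58 ± 0.342 against 7.89 ± 0.102 in 129P2, 7.79 ± 0.194 in C3H and 7.68 ± 0.0976 in B6 (SD, n = 5). The differences were -0.10 from B6, -0.20 from C3H and -0.31 from 129P2 (limma adjusted p = 0.615, 0.468 and 0.129). Without NZO replicate 1, Smad7 was called lower in NZO than in C3H (-0.35, limma adjusted p = 0.0145) and 129P2 (-0.46, adjusted p = 0.00131). With array weights it was called lower than in both as well (limma adjusted p = 0.00597 and 0.00352).

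Of 7 other BMP target genes tested, 0 were called in any comparison or by limma's F-test (3, 1 and 2 in the NZO comparisons with B6, C3H and 129P2 at an unadjusted p under 0.05). Their median NZO differences were -0.12, -0.14 and -0.07 against B6, C3H and 129P2, beside medians of 0.01, -0.00 and 0.01 over all tested genes. Among 28 further genes that regulate hepcidin, 4 were called against B6, 2 against C3H and 4 against 129P2 by limma. In those comparisons 10.3%, 6.6% and 8.9% of all tested genes were called.

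Both receptors for transferrin were measured. Tfrc encodes transferrin receptor 1, the main route of iron uptake, whose messenger RNA is stabilised when a cell is short of iron. It was higher in NZO than in 129P2 past the threshold. The NZO values were 7.74, 7.44, 7.88, 8.78 and 8.13, and those of 129P2 were 7.64, 7.07, 6.80, 7.82 and 7.19. In B6 they were 7.12, 7.30, 7.50, 7.49 and 7.64, and in C3H 7.30, 7.64, 7.77, 7.48 and 7.26. NZO replicates 3 to 5 lay above every other mouse, and replicates 1 and 2 lay among the other strains.

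The Tfrc means were 7.99 ± 0.506 in NZO, 7.30 ± 0.417 in 129P2, 7.49 ± 0.218 in C3H and 7.41 ± 0.203 in B6 (SD, n = 5). NZO minus 129P2 was 0.69 ± 0.20 (SE; limma adjusted p = 0.0279; exact unadjusted permutation p = 0.0476). NZO minus B6 was 0.58 ± 0.20 and NZO minus C3H 0.50 ± 0.20 (limma adjusted p = 0.0624 and 0.164). The call against 129P2 was lost in 7 of 31 alternative settings, which were robust moderation (limma adjusted p = 0.0583), only both strains in the fit (0.0810), and leaving out 129P2 replicate 2, 3 or 5 (0.0704, 0.0985 and 0.0651) or NZO replicate 4 or 5 (0.0934 and 0.0660). The difference from B6 was called without NZO replicate 1 or 2 or 129P2 replicate 4 (limma adjusted p = 0.0426, 0.0238 and 0.0492). With array weights, and without the 3 arrays of narrowest spread, it was called as well (limma adjusted p = 0.0172 and 0.0244). The difference from C3H was called in the same settings (limma adjusted p = 0.0292 and 0.0445). Erythroid precursors carry much Tfrc: of 8 tested erythroid markers 3 were higher in NZO than in B6, 0 differed from C3H by limma (2 at an unadjusted p under 0.05) and 1 was higher than in 129P2, and the mean over the list lay between 7.76 and 7.88 in NZO, 7.30 and 7.67 in B6, 7.75 and 7.98 in C3H, and 7.61 and 7.76 in 129P2. Of all tested genes 3.63% and 4.29% were called higher in NZO than in B6 and 129P2, and 6.6% were called against C3H. The part of erythroid cells in the Tfrc difference was not tested.

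Tfr2, the hepatocyte receptor that senses transferrin iron and is needed for full Hamp expression, did not differ past the threshold in any comparison. Its 20 values ranged from 10.33 to 11.09, with means of 10.87 ± 0.154 in NZO, 10.83 ± 0.111 in 129P2, 10.66 ± 0.192 in C3H and 10.76 ± 0.0971 in B6 (SD, n = 5). The NZO differences were 0.11, 0.20 and 0.04 from B6, C3H and 129P2, each with an SE of 0.09 (limma adjusted p = 0.476, 0.289 and 0.904).

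Slc40a1, the gene of the exporter ferroportin that hepcidin removes, was higher in 129P2 than in B6 and NZO. The 129P2 values were 11.10, 10.66, 11.22, 10.75 and 11.39. The B6 values were 10.38, 10.38, 10.50, 10.41 and 10.29, and the NZO values 10.67, 9.99, 10.05, 10.35 and 10.27. In C3H they were 10.63, 10.76, 9.95, 10.58 and 10.65. All 5 129P2 animals lay above every B6 animal, and 1 NZO animal, replicate 1, reached the lowest 129P2 value.

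The Slc40a1 mean was 11.02 ± 0.314 in 129P2, 10.51 ± 0.323 in C3H, 10.39 ± 0.0774 in B6 and 10.26 ± 0.271 in NZO (SD, n = 5). The signal in 129P2 was 155% of that in B6, a difference of 0.63 ± 0.15 (SE; 95% interval 0.32 to 0.95; limma adjusted p = 0.0114; exact permutation p = 0.00794, the smallest the design allows). NZO minus 129P2 was -0.76 ± 0.15 (-1.08 to -0.45; limma adjusted p = 0.00176), or 59.0% of the 129P2 signal. Both calls held in all 31 alternative settings. C3H minus 129P2 was -0.51 ± 0.15 (limma adjusted p = 0.0545), a difference that was called without C3H replicate 2 (0.0381), NZO replicate 1 (0.0374) or 129P2 replicate 2 or 4 (0.0218 and 0.0379). It was also called with array weights (limma adjusted p = 0.00584), another quantile normalization (0.0155), array spread as a covariate (0.00289) or without the 3 arrays of narrowest spread (0.0403). The 3 lower strains did not differ past the threshold (limma adjusted p from 0.487 to 0.632), and for NZO minus B6, where Hamp was lower, the Slc40a1 difference was -0.13 (95% interval -0.45 to 0.19). Ferroportin is regulated by hepcidin as a protein, which arrays do not measure. Kupffer cells and other macrophages are rich in ferroportin. Of 14 of their markers 1 was called in 129P2 minus B6, lower in 129P2, and 1 in NZO minus 129P2, lower in NZO. Their median differences there were -0.07 and -0.11, beside 0.00 and 0.01 over all tested genes. The mean over the list ran from 8.32 to 9.23 in 129P2, 8.57 to 9.09 in B6, 8.32 to 8.96 in NZO and 8.22 to 8.48 in C3H. Of all tested genes 6.19% were called in 129P2 minus B6 and 8.9% in NZO minus 129P2. The part of Kupffer cells and other macrophages in the Slc40a1 differences was not tested.

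Fth1, the ferritin heavy chain that oxidises iron for storage, was the member that varied least. Its 20 values lay between 13.34 and 13.62, with means of 13.40 ± 0.0491 in NZO, 13.57 ± 0.0639 in 129P2, 13.46 ± 0.0622 in C3H and 13.47 ± 0.0710 in B6 (SD, n = 5). All NZO values lay below all 129P2 values, a difference of -0.16 ± 0.05 (SE; limma adjusted p = 0.0584). That difference was called in some other settings, without 129P2 replicate 2 (limma adjusted p = 0.0253), B6 replicate 3 (0.0415) or C3H replicate 2 (0.0480). Ferritin is controlled mainly at translation, which these arrays do not measure.

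Lcn2 encodes lipocalin 2, an acute phase protein that binds the siderophores by which bacteria take up iron. It was higher in NZO than in B6. The NZO values were 9.68, 13.27, 12.43, 11.20 and 11.10, and the B6 values 9.80, 9.34, 9.95, 9.03 and 9.53. In C3H they were 9.07, 8.20, 11.34, 10.87 and 9.40, and in 129P2 10.76, 9.57, 9.76, 10.71 and 11.20. NZO replicate 2, lowest in Hamp, was the highest of all animals in Lcn2, and NZO replicate 1, highest of its strain in Hamp, was the lowest of its strain in Lcn2.

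The Lcn2 mean was 11.54 ± 1.37 in NZO, 10.40 ± 0.701 in 129P2, 9.77 ± 1.30 in C3H and 9.53 ± 0.367 in B6 (SD, n = 5). NZO minus B6 was 2.01 ± 0.55 (SE; 95% interval 0.86 to 3.15; limma adjusted p = 0.0207; exact unadjusted permutation p = 0.0238), a 4.02-fold signal. NZO minus C3H was 1.76 ± 0.55 and NZO minus 129P2 1.14 ± 0.55 (limma adjusted p = 0.0587 and 0.255). The call against B6 was lost in 5 of 31 settings, with robust moderation (limma adjusted p = 0.0591), with array spread as a covariate (0.123), and without B6 replicate 4 (0.0605) or NZO replicate 2 or 3 (0.0798 and 0.0667). The difference from C3H was called without C3H replicate 3 or 4 or NZO replicate 1 (limma adjusted p = 0.0165, 0.0386 and 0.00930). The covariate that lost the call against B6 gave one against C3H, at 1.92 (0.00886 by limma, adjusted). Weighting the arrays gave it too, as did dropping the 3 narrowest arrays (limma, adjusted: 0.00278 and 0.0443). Weighted arrays also put the difference from 129P2 past the threshold, at 1.33 (0.0487 by limma, adjusted).

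Many acute phase genes, which the liver induces in inflammation, were higher in NZO. Of 27 tested acute phase genes 16, 15 and 12 were called higher by limma in NZO minus B6, NZO minus C3H and NZO minus 129P2, and no call was lower. Of all tested genes 3.63%, 3.51% and 4.29% were called higher there. The mean over that list lay between 11.15 and 11.79 in NZO, 10.41 and 10.60 in B6, 10.49 and 10.80 in C3H, and 10.50 and 11.22 in 129P2. Among NZO animals it was 11.47, 11.79, 11.60, 11.15 and 11.46 for replicates 1 to 5. Neutrophils also make Lcn2. Of 14 measured neutrophil markers 7, among them S100a8, Ly6g and Ngp, were dim on all 20 arrays, and of the 7 tested 1, S100a9, was called higher against B6 and 0 against C3H and 129P2 by limma (1 in each at an unadjusted p under 0.05). The mean over those 7 lay between 6.93 and 6.96 in NZO, 6.65 and 6.84 in B6, 6.72 and 6.98 in C3H, and 6.76 and 6.90 in 129P2. The part of the acute phase genes and of neutrophils in the Hamp and Lcn2 differences was not tested.

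Counted over the 10 genes, 2 were called in NZO minus B6 (Lcn2 higher and Hamp lower), where 10.3% of all tested genes were, 3.63% higher and 6.64% lower. In NZO minus C3H 1 was called (Hamp, lower), beside 6.6% of all genes, with 3.09% lower. In NZO minus 129P2 3 were called (Tfrc higher, Hamp and Slc40a1 lower), beside 8.9%, with 4.29% higher and 4.61% lower. In 129P2 minus B6 1 was called (Slc40a1, higher), beside 6.19% in both directions and 2.11% higher. Strains without overlap of values were seen for 1 member each in NZO minus 129P2 (Fth1), 129P2 minus B6 (Slc40a1) and C3H minus 129P2 (Bmp6), where 7.95%, 7.41% and 5.4% of all tested genes had none. In C3H minus B6 and C3H minus 129P2 0 of the 10 were called by limma, beside 8.05% and 5.03%; at an unadjusted p under 0.05 there were 0 and 2 by limma and 1 and 3 by exact permutation. By the F-test over 4 strains 3 passed, Hamp (adjusted p = 0.00113), Slc40a1 (0.00385) and Lcn2 (0.0421), beside 17% of all genes. The median difference of the 10 was -0.09, -0.13 and -0.18 in NZO minus B6, C3H and 129P2, beside 0.01, -0.00 and 0.01 over all genes. The 3 NZO comparisons share the NZO animals. Without NZO replicate 1 the counts in these 3 comparisons were 4, 4 and 5, and 6 passed the F-test.

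**Figure D2:**
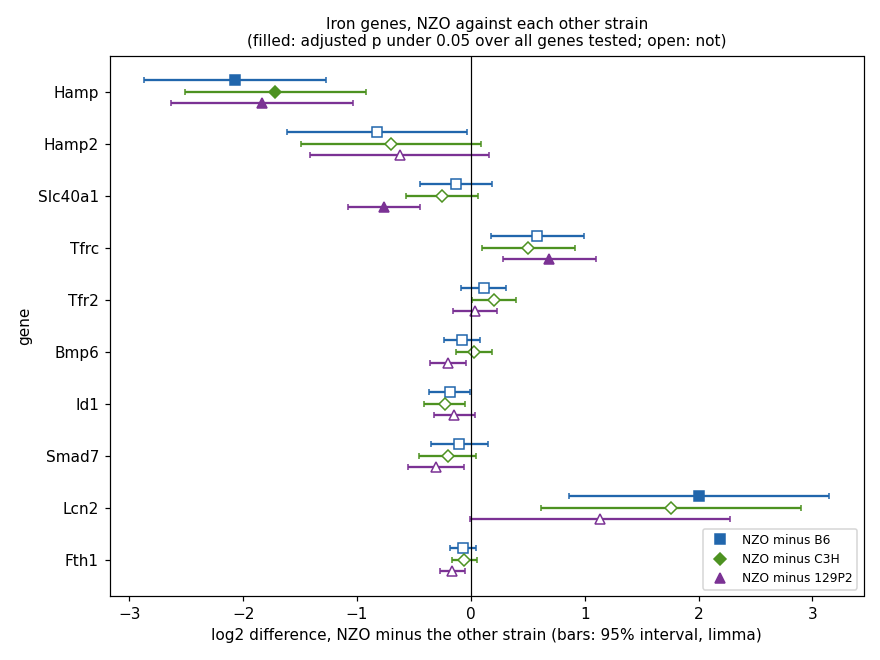
Log2 difference of NZO from each other strain (x axis) for the 10 iron genes (y axis), with limma's 95% intervals; filled symbols passed the adjusted p of 0.05 and open symbols did not. Hamp is filled in all 3 comparisons, at -2.07, -1.72 and -1.84, while Slc40a1 and Tfrc are filled against 129P2 and Lcn2 against B6.

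Whether the members varied together among animals of 1 strain was examined on deviations from strain means, over 20 animals and 14 pairs of genes, with 100000 permutations within strains. Id1 and Smad7, both BMP targets, rose and fell together (Pearson's r = 0.68, permutation p = 0.0001, adjusted p = 0.0014 over the 14 pairs; Spearman's rho = 0.75, adjusted permutation p = 0.00378). The correlation was 0.61 without the 2 animals farthest from the median of Id1, where the adjusted permutation p was 0.111, and 0.86 over the 15 animals of the other 3 strains (adjusted permutation p = 0.00588). It was the 1 pair of 14 past the threshold. Bmp6 passed the threshold with neither target, with r of 0.24 to Id1 and -0.03 to Smad7 (adjusted permutation p = 0.520 and 0.876). Without NZO r was 0.39 to each (adjusted permutation p = 0.376 and 0.375).

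No pair with Hamp passed the threshold after adjustment, and 3 of them, with Hamp2, Smad7 and Lcn2, rested on the NZO animals. Hamp and Hamp2 gave r = 0.83 (permutation p = 0.00725, adjusted 0.0507) and rho = 0.61 (adjusted permutation p = 0.147). Without the 2 animals farthest from the median of Hamp r was 0.43, and without NZO 0.33. Hamp and Smad7 gave r = 0.72 (adjusted permutation p = 0.0611), 0.27 without the 2 farthest animals and 0.25 without NZO. Hamp and Lcn2 gave r = -0.56 (permutation p = 0.0668, adjusted 0.187) and rho = -0.31 (adjusted permutation p = 0.424), and r = -0.01 over the animals of the other strains. Hamp and Slc40a1 gave r = 0.53 both with and without NZO (adjusted permutation p = 0.0611 and 0.375) and 0.29 without the 2 farthest animals. The pairs of Hamp with Tfrc, Tfr2, Bmp6, Id1 and Fth1 had r from -0.29 to 0.34 over all animals (adjusted permutation p from 0.194 to 0.876) and from -0.40 to 0.60 without NZO (0.170 to 0.976). With array spread regressed out, Hamp with Hamp2 gave r = 0.75 and Hamp with Smad7 r = 0.65 (adjusted permutation p = 0.0454 and 0.0446), while Hamp with Slc40a1 gave 0.18.

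**Figure D3:**
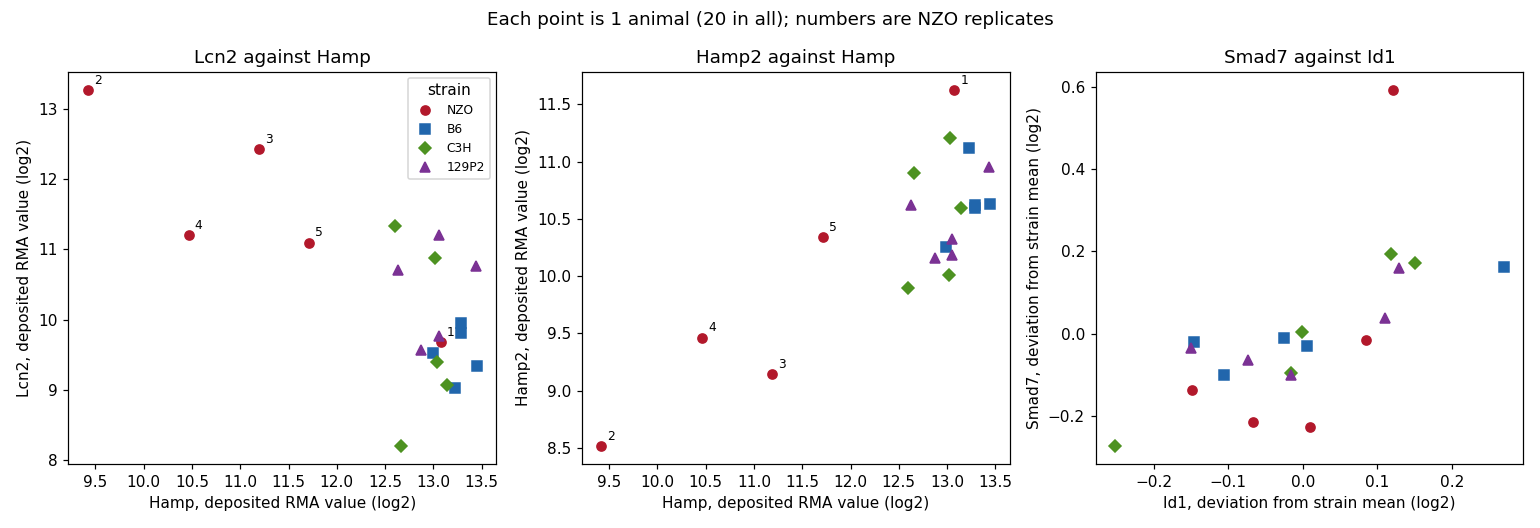
Left and middle, deposited log2 values of Lcn2 and Hamp2 (y axes) against Hamp (x axis) in 20 animals; right, Smad7 (y axis) against Id1 (x axis) as deviations from strain means, with colours and symbols for strains and numbers for NZO replicates. In the left and middle panels the NZO animals 2 to 5 lie apart from the rest at low Hamp. In the right panel Smad7 tends to rise with Id1, and NZO replicate 1 lies far above the other animals in Smad7.

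The genes whose level over all 20 arrays was most like that of Hamp were Inmt (Pearson's r = 0.928), Cd55 (0.916), Clec2d (0.874), Akr1c12 (0.867) and Cyp3a11 (0.862). Inmt methylates indoleamines, Cd55 restrains complement, and Cyp3a11 is a drug-metabolising cytochrome. With strain means removed, their correlations with Hamp ran from 0.637 for Cyp3a11 to 0.844 for Cd55. For Hamp2 they were Nfu1 (0.889), an iron-sulphur cluster carrier, Mrpl1 (0.868), Med6 (0.862), Mrps31 (0.858) and Eif2s3y (0.857), none of them among those for Hamp. For Lcn2 they were Ncan (0.845), Kcnmb4os1 (0.834), Tnfrsf13c (0.827), A2m (0.821) and Kif9 (0.818). These are descriptions over arrays that also share differences in spread.

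Of 100 other iron genes measured, 96 were tested. In NZO minus B6 16 were called, 9 higher and 7 lower, in NZO minus C3H 8, 3 higher and 5 lower, and in NZO minus 129P2 14, 10 higher and 4 lower. In C3H minus B6 9 were called, in 129P2 minus B6 8 and in C3H minus 129P2 6, and 24 passed the F-test. These were 16.7%, 8.33% and 14.6% of the 96 in the NZO comparisons, where 10.3%, 6.6% and 8.9% of all tested genes were called. In the other 3 comparisons they were 9.38%, 8.33% and 6.25%, beside 8.05%, 6.19% and 5.03%, and by the F-test 25% beside 17%. Whether these shares differ was not tested. Their median differences, -0.05, 0.00 and -0.04 in the 3 NZO comparisons, lay near those of all genes.

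Among regulators of hepcidin, Fgl1 differed most. It encodes a fibrinogen-like protein of hepatocytes that binds BMP6 and lowers Hamp. The NZO values were 13.38, 13.68, 13.62, 13.02 and 13.25, and the highest value in any other strain was 12.00. The NZO mean was 13.39 ± 0.271 against 11.54 ± 0.397 in 129P2, 11.60 ± 0.241 in C3H and 11.83 ± 0.0963 in B6 (SD, n = 5). NZO exceeded B6 by 1.56, C3H by 1.79 and 129P2 by 1.85, each with an SE of 0.15 (limma adjusted p = 2.23e-07, 3.54e-08 and 1.8e-08). Fgl1 was high in all 5 NZO animals. The part of Fgl1 in the Hamp differences was not tested.

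Bmp2, the endothelial ligand that sustains basal Hamp, was lower in NZO than in B6 (-0.39 ± 0.12) and C3H (-0.56 ± 0.12), with limma adjusted p = 0.0454 and 0.00539 (SE). Its NZO values were 7.29, 6.97, 6.99, 7.26 and 7.36, all below those of C3H, whose lowest was 7.41. Against 129P2 it was not called. The call against C3H held in all 31 alternative settings. That against B6 was lost in 15, of which 12 left out 1 animal, namely B6 replicate 2, 3, 4 or 5, C3H replicate 4 or 5, NZO replicate 2, 3 or 4, or 129P2 replicate 3, 4 or 5 (limma adjusted p from 0.0501 to 0.133). The highest adjusted p, 0.206, came with array spread as a covariate. Markers of liver endothelial cells, which make Bmp2 and Bmp6, were lower in NZO as well. Of 16 tested, 10, 8 and 9 were called lower than in B6, C3H and 129P2 by limma, and no call was higher, beside 6.64%, 3.09% and 4.61% of all tested genes called lower; the mean over the list lay between 7.98 and 8.35 in NZO against 8.39 to 8.81 in the other strains. Of 13 stellate cell markers 7, 5 and 6 were called lower in NZO. The part of these cells in the Bmp2 differences was not tested.

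Stat3, which carries the interleukin 6 signal to Hamp, was higher in NZO than in B6 (0.36, limma adjusted p = 0.0476) and 129P2 (0.47, adjusted p = 0.00963). The call against B6 was lost in 17 of 31 settings, of which 15 left out 1 animal (all but B6 replicate 5, C3H replicate 3, NZO replicate 5 and 129P2 replicate 1 or 2; limma adjusted p from 0.0501 to 0.124) and 1 gave all arrays equal medians (0.135), and that against 129P2 in 1. Furin, a protease that processes hepcidin, was lower than in B6 (-0.29, limma adjusted p = 0.0401), a call lost without B6 replicate 1, 4 or 5 or NZO replicate 1, 2, 3 or 5 (0.0528 to 0.125) or with array spread as a covariate (0.114). Against 129P2, Bmp7 was higher (0.53, adjusted p = 0.000623) and Cebpa, a hepatocyte transcription factor that drives Hamp, lower (-0.45, adjusted p = 0.0312). Bmp7 was higher in C3H than in 129P2 as well (0.55, limma adjusted p = 0.000590), and its NZO minus C3H difference was -0.02. The call of Cebpa was lost without NZO replicate 2, 3 or 4 or 129P2 replicate 2, 3 or 5 (limma adjusted p from 0.0588 to 0.105), when the fit held just NZO and 129P2 (0.0624), after array medians were made equal (0.0677) and without the 3 arrays of narrowest spread (0.147). Hfe, whose loss causes haemochromatosis, differed between C3H and B6, with C3H minus B6 at -0.37 (limma adjusted p = 0.0228), a call lost without B6 replicate 3 or 4 or C3H replicate 1 (0.0686 to 0.0790), with another quantile normalization (0.0607) and with array spread as a covariate (0.158). Hjv, the BMP coreceptor hemojuvelin, and Tmprss6, the protease that cleaves it, were not called in any NZO comparison, with differences of -0.14, 0.20 and 0.02 for Hjv and -0.16, -0.13 and -0.25 for Tmprss6 against B6, C3H and 129P2.

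In iron and haem uptake and transport 21 of 25 measured genes were tested, of which 6, 3 and 6 were called in NZO minus B6, minus C3H and minus 129P2. These were 28.6%, 14.3% and 28.6%, beside 10.3%, 6.6% and 8.9% of all tested genes. Whether the shares differ was not tested. Hp, haptoglobin, which binds free haemoglobin, was higher in NZO in all 3 comparisons by 0.59, 0.53 and 0.68, each with an SE of 0.09 (limma adjusted p = 9.28e-05, 0.000358 and 1.56e-05). Hpx, hemopexin, which binds free haem, was higher than in C3H (0.34) and 129P2 (0.37) (limma adjusted p = 0.0015 and 0.000542). Both are acute phase genes and stand on that list too. Scara5, a ferritin receptor, was higher than in B6 (1.0) and 129P2 (0.83), with limma adjusted p = 4.68e-05 and 0.000418.

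Abcb10, a mitochondrial transporter needed for haem synthesis, was lower in NZO in all 3 comparisons. Its NZO values were 8.15, 8.11, 8.15, 8.44 and 8.03, all below those of C3H and 129P2. The differences from B6, C3H and 129P2 were -0.49, -0.63 and -0.62, each with an SE of 0.10 (limma adjusted p = 0.00189, 0.000147 and 0.000168). Steap3, the ferrireductase that reduces iron after uptake through transferrin receptor 1, was higher in 129P2 than in each other strain. Its 129P2 values were 9.66, 9.24, 9.34, 9.53 and 9.54, above every other mouse. 129P2 exceeded B6 by 0.61, and C3H and NZO differed from it by -0.83 and -0.69, each with an SE of 0.09 (limma adjusted p = 0.000114, 1.83e-06 and 1.92e-05).

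In haem synthesis and breakdown, 2, 1 and 2 of 12 tested genes were called in NZO minus B6, minus C3H and minus 129P2. These were 16.7%, 8.33% and 16.7%, beside 10.3%, 6.6% and 8.9% of all tested genes. Alad, the enzyme that joins aminolevulinic acid into porphobilinogen, divided the strains into 3 levels. C3H was highest at 11.51 ± 0.117, NZO lay at 11.01 ± 0.223, and 129P2 and B6 at 10.38 ± 0.140 and 10.27 ± 0.115 (SD, n = 5). The lowest NZO value, 10.65, lay above the highest of 129P2 and B6, 10.61 and 10.42, and the highest, 11.25, below the lowest of C3H, 11.34. C3H minus B6 was 1.23, NZO minus B6 0.74 and NZO minus C3H -0.49, each with an SE of 0.10 (limma adjusted p = 1.43e-08, 2.16e-05 and 0.00234), and 129P2 and B6 did not differ past the threshold. Alas2, the erythroid form of the first enzyme of haem synthesis and so also a marker of erythroid cells, was higher in NZO than in B6 (0.58) and 129P2 (0.59), with limma adjusted p = 0.0013 and 0.0011.

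Of 11 genes of iron storage and the iron regulatory proteins 2, 1 and 0 were called by limma in the 3 NZO comparisons, the last with 3 at an unadjusted p under 0.05. The shares were 18.2%, 9.09% and 0%, beside 10.3%, 6.6% and 8.9% of all tested genes. Cdc42bpa, a kinase whose messenger RNA carries an iron-responsive element, was lower in NZO than in B6 (-0.73) and C3H (-0.53), and in 129P2 than in B6 (-0.63), with limma adjusted p = 0.000214, 0.00539 and 0.00122. Of 17 genes of iron-sulphur cluster assembly 2, 1 and 2 were called, or 11.8%, 5.88% and 11.8%, near the shares of all tested genes. Fdx1, a mitochondrial ferredoxin, was lower in NZO than in C3H (-0.53) and 129P2 (-0.77) and higher in 129P2 than in B6 (0.54), with limma adjusted p = 0.00322, 4.71e-05 and 0.00259.

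**Figure D4:**
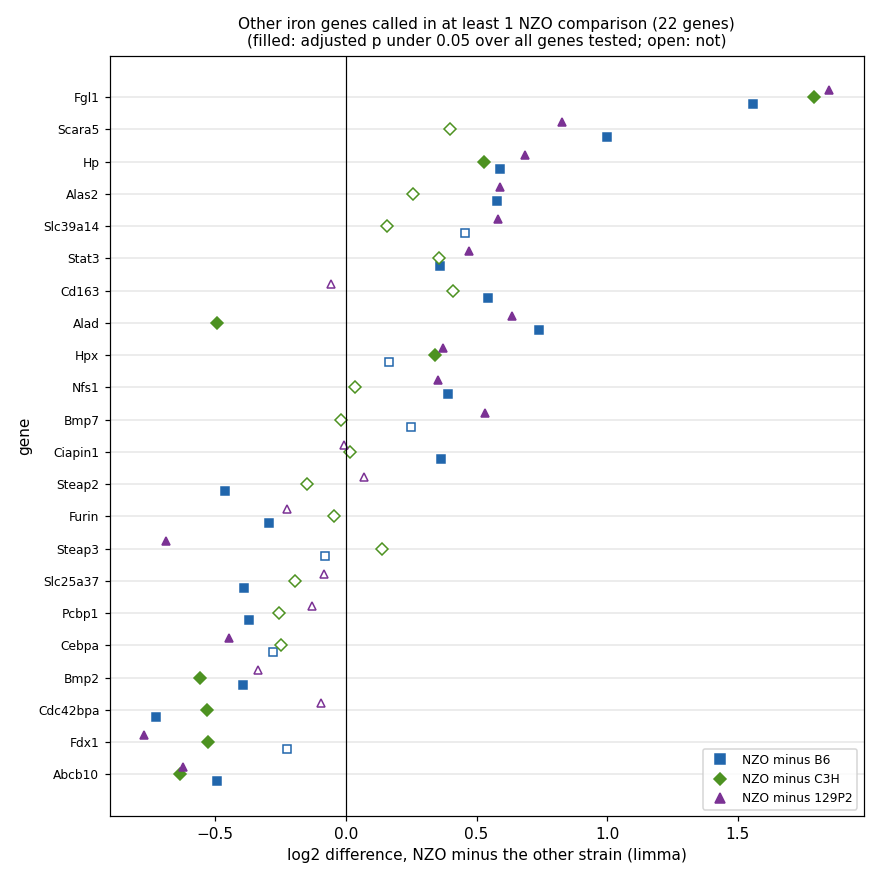
Log2 difference of NZO from each other strain (x axis) for the 22 other iron genes called in at least 1 NZO comparison (y axis); filled symbols passed limma's adjusted p of 0.05. Fgl1 lies farthest to the right in all 3 comparisons, at 1.56, 1.79 and 1.85, and Abcb10 is filled to the left in all 3.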

How the data were processed

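Liver RNA with an integrity number above 8, per the labels' protocols, was amplified from 150 ng per animal and hybridized to 1 array for each of 20 mice. The authors deposited log2 values, which were used unchanged; per the submitters' processing notes they were computed in Affymetrix Expression Console with RMA (robust multi-array average), whose versions are not given. This method scales all arrays together, so a change of most genes in 1 direction would be removed. The genome build is not given in the sources used here. Strains come from the labels, which carry no replicate numbers, so animals were numbered in series order. They give no batch and do not say which animals were littermates.

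Of 35556 probe sets, 21789 had 1 gene symbol in the platform annotation and were used, 1621 had several and 12146 were unnamed here. By Entrez identifier, 19856 of 19938 genes were matched to the GRCm38.p6 annotation, which changed 0 symbols. A gene with several probe sets was represented by the one of highest mean, and genes that exceeded the 40th percentile on fewer than 5 arrays were not tested. Sequence differences between strains under the probes were not tested.

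Strains were compared in R 4.3.3 (with data.table, version 1.17.8) by limma 3.58.1, with 1 mean per strain, no covariate, an intensity trend, 16 residual and 6.37 prior degrees of freedom, and Benjamini-Hochberg adjustment over 14190 genes at 0.05. Single values were also tested by exact two-sided permutation, and correlations by permutation within strains (NumPy 2.4.6, SciPy 1.17.1, pandas 2.3.3, Python 3.11.15). Promoter windows are RefSeq's on GRCm38.p6 and were found for 7 of the 10 genes; they were aligned with Biopython 1.88, and figures were drawn with matplotlib 3.10.9. The fit was tested on simulated data.

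The 10 genes, the lists of other iron genes and of cell type markers, and the tests were chosen with earlier results of these data known. All 10 were named. Of other iron genes, at most the 8 of largest difference among those called in a comparison were to be named; Bmp7, Stat3, Furin and Cebpa (in some comparisons), Hjv and Tmprss6, and the further genes in the plot of other iron genes and in the closing section were added after their values were seen. For Hamp, Hamp2 and Lcn2 the 5 tested genes of highest Pearson correlation over 20 arrays were named, leaving out gene segments, olfactory receptors, small RNAs, clones and predicted genes. Alternatives were array weights, robust moderation, a fit without intensity trend, a second quantile normalization, equal array medians, a filter at the 60th percentile or none, only the compared strains, the mean over probe sets, array spread as a covariate, leaving out the 3 arrays of narrowest spread, and dropping each animal in turn. The exact test of each gene and the correlations without NZO were added after the data were seen.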

Additional observations from a re-analysis of the deposited data

Results flagged for a closer look

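In 4 of the 40 groups examined (10 genes in 4 strains of 5 animals) 1 animal stood apart from the rest of its strain, its gap to the nearest animal being more than 0.71 of the strain's whole range (Dixon's criterion), which chance alone passes in about 1 of 20 groups. Smad7 was 8.18 in NZO replicate 1, where the next NZO animal was at 7.57 and the lowest at 7.36. Slc40a1 was 9.95 in C3H replicate 3, where the other C3H animals lay between 10.58 and 10.76. Tfr2 was 10.59 in B6 replicate 3, where the others lay between 10.76 and 10.82. Bmp6 was 7.93 in 129P2 replicate 2, where the others lay between 7.60 and 7.69. The arrays of C3H replicate 3 and 129P2 replicate 2 were among the 3 of narrowest spread, at 2.17 and 2.19, and that of NZO replicate 1 was the widest.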

How the results depend on the processing

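No called difference changed direction in any setting. The NZO calls of Hamp and the 129P2 calls of Slc40a1 held in all 31 settings, with a highest limma adjusted p of 0.0337 for Hamp and 0.0480 for Slc40a1.

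Counts of called members moved by more than 1.5 times in these settings. With array weights they were 4 (NZO minus B6), 7 (NZO minus C3H), 7 (NZO minus 129P2), 1 (C3H minus 129P2) and 8 (F-test). With array spread as a covariate they were 1 (NZO minus B6), 2 (NZO minus C3H), 1 (C3H minus B6) and 1 (C3H minus 129P2). Without the 3 arrays of narrowest spread they were 3 (NZO minus C3H) and 1 (C3H minus 129P2), with another quantile normalization 1 (C3H minus 129P2), and with robust moderation 1 (NZO minus B6). With 1 animal left out they ran from 1 to 4 in NZO minus B6, 1 to 4 in NZO minus C3H, 2 to 5 in NZO minus 129P2, 0 to 1 in C3H minus 129P2 and 2 to 6 by the F-test.

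For other iron genes, array weights gave 34 calls in NZO minus B6, 26 in NZO minus 129P2, 14 in C3H minus B6 and 10 in C3H minus 129P2. The covariate gave 14 in NZO minus C3H and 22 in NZO minus 129P2, another quantile normalization 13 in NZO minus C3H, and only the compared strains 5 in 129P2 minus B6. There, leaving out 1 animal gave 5 to 10, the lowest without B6 replicate 4.

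Of the 14 correlations, 5 passed with equal array medians, 3 with array spread regressed out, 0 without the 2 animals farthest from the median and 1 to 3 with 1 animal left out. Of the 6 comparisons of Hamp minus Hamp2, 1 to 3 passed with 1 animal left out. The cause of these shifts was not tested.

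No paired analysis was made, because each array came from a separate animal and the labels name no pairs between strains. With 5 arrays a strain, a difference smaller than a few standard errors was not detectable.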

Other observations

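Several other iron genes were called between strains other than NZO, some of them in an NZO comparison too. Epas1, a hypoxia-inducible transcription factor whose messenger RNA carries an iron-responsive element, was lower in C3H than in B6 (-0.50, limma adjusted p = 0.00564), and so was Ppox, a late enzyme of haem synthesis (-0.31, adjusted p = 0.0105). Ciapin1, which takes part in cytosolic iron-sulphur cluster assembly, set B6 apart: NZO, C3H and 129P2 were each higher than B6, by 0.36, 0.35 and 0.37 (limma adjusted p = 0.0014, 0.00274 and 0.00149). Cd163, the macrophage receptor for haptoglobin bound to haemoglobin, was higher than in B6 in NZO (0.55, limma adjusted p = 0.0232) and in 129P2 (0.60, adjusted p = 0.0169). The calls of Epas1, Ppox and Ciapin1 held in all 31 alternative settings, while that of Cd163 was lost in 5 for NZO and in 1 for 129P2.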
